A study of Mus musculus with 18 samples.

Results

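The T cell receptor and CD3 genes described here are 10 genes of the 55487 in the deposited count table, found by matching the table's Ensembl IDs to their symbols. They are Trac, Trbc1, Trbc2 and Trdc, which encode receptor constant regions, Cd3d, Cd3e, Cd3g and Cd247, which encode the CD3 chains, and Cd5 and Cd6, which encode surface receptors that associate with the complex. Each was counted in 18 libraries of sorted mouse spleen T cells that had been kept for 72 h with IL-2 (10 ng/ml) and with plate-bound antibodies to CD3 and CD28 (2 µg/ml each). KO means mice of the strain Foxp3 YFP/cre Ebi3 -/-, and WT means Foxp3 YFP/cre mice, so that both genotypes carried the Foxp3 allele with YFP and Cre (Foxp3 marks regulatory T cells, Treg). Ebi3 is the subunit that IL-27 and IL-35 have in common. By label there were CD8+, CD4+ and Treg cells of each genotype, 3 libraries of each, with no age, sex or number of animals stated. The stimulating antibody binds the CD3 complex, and no unstimulated sample is among the 18.

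The αβ T cell receptor recognises peptide on MHC molecules but has almost no cytoplasmic part of its own. It is assembled with CD3δ, CD3ε, CD3γ and CD3ζ (the product of Cd247), whose cytoplasmic tails carry the tyrosine motifs that LCK phosphorylates and ZAP70 binds. An incomplete complex is retained and degraded inside the cell, and stimulation through CD3 is known to internalise the receptor and degrade its chains. Trbc1 and Trbc2 are alternative β chain constant regions of which a rearranged β locus uses 1, and Trdc belongs to the δ chain of γδ T cells. CD5 and CD6 are scavenger-type receptors that adjust signalling, and CD5 is known to follow the strength of receptor signalling in thymocytes and T cells.

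The positions of the genes (GRCm38, GENCODE M21) put most of them beside a partner. Trdc (ENSMUSG00000104876, chr14:54142851-54148868, plus strand) lies 71653 bases before Trac (ENSMUSG00000076928, chr14:54220521-54224206, plus strand), inside the α locus. Trbc1 (ENSMUSG00000076490, chr6:41538218-41539881, plus strand) and Trbc2 (ENSMUSG00000076498, chr6:41546730-41548352, plus strand) are 6849 bases apart. Cd3g (ENSMUSG00000002033, chr9:44969572-44980431, minus strand) and Cd3d (ENSMUSG00000032094, chr9:44981786-44987339, plus strand) are divergent, with 1355 bases between their starts, and Cd3e (ENSMUSG00000032093, chr9:44998740-45009627, minus strand) ends 11401 bases past the end of Cd3d, so that the 3′ ends of Cd3d and Cd3e face each other. Cd247 (ENSMUSG00000005763, chr1:165788681-165877277, plus strand) stands alone. Cd5 (ENSMUSG00000024669, chr19:10717116-10739002, minus strand) and Cd6 (ENSMUSG00000024670, chr19:10789341-10830058, minus strand) are 50339 bases apart.

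The coding parts of Trbc1 and Trbc2 are shown because the results below treat their counts as separate. Over 518 annotated coding bases the genes are 95.56% identical, with 23 differing bases, and 22 of these lie in the last stretch, from base 371 to base 518. That stretch, spliced from chr6:41538588-41539662 and chr6:41547100-41548178 (GRCm38, plus strand), is printed for both genes from the GENCODE M21 transcripts, 5′ to 3′, with capitals at the bases that differ.
Trbc1: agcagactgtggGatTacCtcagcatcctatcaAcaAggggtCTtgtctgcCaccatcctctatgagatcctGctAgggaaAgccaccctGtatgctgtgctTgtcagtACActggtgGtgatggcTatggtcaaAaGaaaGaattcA
Trbc2: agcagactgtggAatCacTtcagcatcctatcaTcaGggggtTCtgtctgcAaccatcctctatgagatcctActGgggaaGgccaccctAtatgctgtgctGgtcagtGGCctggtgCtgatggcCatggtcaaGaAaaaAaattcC
The annotated 3′ untranslated parts, which a 3′ tag mostly reads, are much less alike, with 48.64% identity over 220 aligned columns. How reads that fit both genes were counted is not given in the sources used here, so a remaining exchange of counts between Trbc1 and Trbc2 was not tested.

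The 250 bases before the start were available from RefSeq (GRCm38.p6) for 5 of the 10 genes and are shown because the levels of these genes were correlated between libraries (below). Capitals mark matches of AGGAAG, the core bound by ETS factors, on either strand. The windows are chr9:44981536-44981785 for Cd3d and chr1:165788431-165788680 for Cd247 on the plus strand, and chr9:45009612-45009861 for Cd3e, chr9:44980432-44980681 for Cd3g and chr19:10738975-10739224 for Cd5 on the minus strand. Each is printed 5′ to 3′ on the gene's strand.
Cd3d: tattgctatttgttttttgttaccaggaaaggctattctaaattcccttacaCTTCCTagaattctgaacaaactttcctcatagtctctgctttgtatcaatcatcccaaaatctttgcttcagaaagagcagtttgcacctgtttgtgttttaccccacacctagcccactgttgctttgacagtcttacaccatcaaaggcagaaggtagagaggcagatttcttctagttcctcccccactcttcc
Cd3e: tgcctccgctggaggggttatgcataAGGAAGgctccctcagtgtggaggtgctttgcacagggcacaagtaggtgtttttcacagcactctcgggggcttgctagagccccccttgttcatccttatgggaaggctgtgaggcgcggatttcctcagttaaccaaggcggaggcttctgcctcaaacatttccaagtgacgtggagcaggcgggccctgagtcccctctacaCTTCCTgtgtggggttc
Cd3g: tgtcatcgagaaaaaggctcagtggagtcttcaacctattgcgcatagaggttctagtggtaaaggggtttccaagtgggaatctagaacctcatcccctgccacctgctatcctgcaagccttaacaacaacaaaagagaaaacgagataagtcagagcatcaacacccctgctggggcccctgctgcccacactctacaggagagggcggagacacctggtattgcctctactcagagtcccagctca
Cd247: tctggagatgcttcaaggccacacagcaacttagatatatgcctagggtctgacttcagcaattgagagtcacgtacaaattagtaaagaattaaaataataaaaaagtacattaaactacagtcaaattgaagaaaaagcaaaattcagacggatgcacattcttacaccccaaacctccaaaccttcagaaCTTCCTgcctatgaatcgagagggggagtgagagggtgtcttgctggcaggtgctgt
Cd5: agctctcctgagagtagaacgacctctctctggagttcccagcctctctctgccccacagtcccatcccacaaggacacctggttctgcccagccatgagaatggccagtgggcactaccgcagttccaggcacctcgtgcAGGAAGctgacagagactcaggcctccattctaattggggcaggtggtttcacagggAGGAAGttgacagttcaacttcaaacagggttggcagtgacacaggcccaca
The ETS core was present 1 time in Cd3d and Cd247, 2 times in Cd3e and Cd5 and 0 times in Cd3g, and 29.5% of 32817 mouse promoters of the same length hold it. The E-box CAGNTG was matched 1 time in Cd3d and Cd247, 2 times in Cd3g and Cd5 and 0 times in Cd3e, against 44.8% of all promoters with a match. Neither TGTGGT, the core bound by RUNX factors (14% of all promoters), nor the TATA box letters TATAAA (12.4%) were in any of the 5 windows. These matches describe letters and not binding.

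Total counts were 841892 to 1089003 in the 6 Treg libraries and 1358671 to 2255950 in the other 12, so that 3 counts correspond to 1.33 to 3.56 CPM, a count scaled to the size of its library. Despite the lower totals, 20034 to 20596 genes had a count in the Treg libraries, against 16193 to 17338 in the other 12. The cause was not tested. Each 3′ tag stands for 1 transcript end, and no scaling to transcript length was applied. Treg KO replicates 1 and 3 could not be told apart beyond sampling noise, nor could Treg WT replicates 1 and 2, and each pair was summed and counted as 1 sample. That left 16 samples, with n = 2 in each Treg group and n = 3 elsewhere. Another 4 of 9 Treg pairs across the genotypes also showed no difference beyond sampling noise, so the Treg samples may not be independent. The labelled cell types were clear for CD8 and CD4 (Cd8a at 142 to 243 CPM in CD8 libraries against 0 to 1.68 CPM in CD4 libraries, and Cd4 at 0 to 0.506 CPM in CD8 libraries against 99.5 to 155.6 CPM in CD4 libraries). Libraries labelled Treg held both Cd4 (33.9 to 67 CPM) and Cd8a (24.6 to 46 CPM), and Foxp3 stood at 0 to 1.27 CPM, so Treg is used below only as their label. Ebi3 was counted in all libraries, at 27.4, 24.1 and 33.8 CPM in CD8 KO against 28.9, 27.8 and 29.5 CPM in CD8 WT, at 20.4, 26 and 22.3 CPM in CD4 KO against 60.1, 38.4 and 39.1 CPM in CD4 WT, and at 28.7, 34 and 24.2 CPM in Treg KO against 34.4, 25.4 and 39.5 CPM in Treg WT. The genotypes were apart in CD4 and overlapped in CD8 and Treg. Whether the tagged 3′ end is within the deletion is not known here, so Ebi3 counts do not check the labels, and KO and WT mean the libraries labelled so. No source used here says whether replicates came from different animals or cultures, so p-values reflect only the spread among these samples, which may be technical.

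In all 18 libraries the 10 genes together made up only 0.084% to 0.2005% of the counts, or 896 to 1949 CPM. Genes that mark B cells were far above them, with 15 matched markers (Cd79a, Ms4a1, Ighm and others) summing to 4760 to 11230 CPM, and 0 of the 15 were without counts in CD8, CD4 or Treg libraries. The 4 adult hemoglobin genes summed to 621 to 1488 CPM, and 14 myeloid and dendritic markers to 56.4 to 121 CPM. In bulk samples like these, fewer T cells in a sample and less receptor RNA per T cell cannot be told apart.

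**Figure D1:**
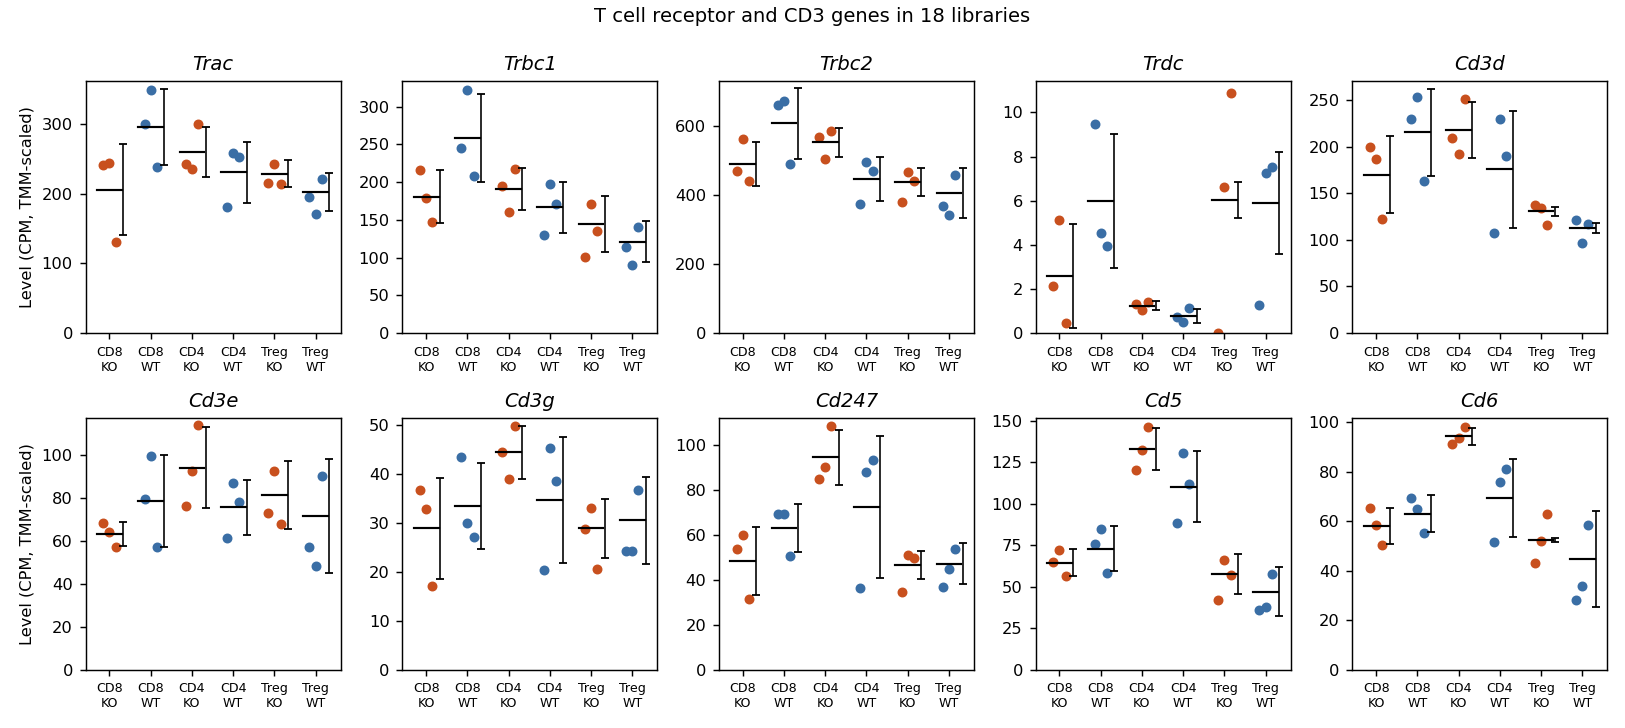
Levels of the 10 genes in CPM (y axis, from 0, TMM-scaled) in every library, KO in orange left of WT in blue for each cell label. Points are the 3 libraries of a group, horizontal lines the group mean and bars its SD (n = 3, or n = 2 in Treg after the summed pairs), and Cd5 in the 6 CD4 libraries lies above all CD8 and Treg libraries.

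No receptor, CD3, Cd5 or Cd6 gene passed the test between KO and WT in any cell label, but the direction was shared. In CD8 all 10 genes had a lower fitted level in KO than in WT, with a median log2 fold change of -0.33 against 0.00 over all 12820 genes tested, and in CD4 all 10 were higher in KO, with a median of 0.30 against 0.00. In Treg 8 were higher and 2 lower, with a median of 0.20 (-0.003 over all genes). Single libraries moved these medians, to -0.20 without CD8 KO replicate 3 and -0.51 without CD8 WT replicate 3, to 0.10 without CD4 WT replicate 1, and to 0.02 without Treg KO replicate 2, 0.13 without Treg WT replicate 2 and 0.37 without Treg WT replicate 3. Counting a gene as called at an adjusted p under 0.05 (edgeR quasi-likelihood test, Benjamini-Hochberg over all genes tested), 0 of 10 were called in CD8, where 0.0078% of all genes were, and 0 of 10 in CD4 and in Treg, where 0% of all genes were. The KO and WT libraries lay entirely apart for 0 of the 10 in CD8 (17.4% of all genes), for 2 in CD4 (9.59% of all genes) and for 0 in Treg (9.57% of all genes). Unadjusted p-values under 0.05 were reached by 4 of the 10 in CD8 (1940 of all genes), by 2 in CD4 (842 of all genes) and by 0 in Treg (192 of all genes), and DESeq2 called 0 of the 10 in each label. All 10 genes passed the filter on low counts in the fit of all groups. With only the 2 groups of a label in the fit, 9 of the 10 were tested and Trdc was not. Trdc is 1 of the 4 in CD8, and its genotype values are a description only. The 10 are not independent tests, because most of their levels were correlated between libraries.

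Trac, the α chain constant region, stood at 242, 244 and 129.9 CPM in CD8 KO against 299.8, 348 and 239 CPM in CD8 WT. In CD4 it stood at 242, 236 and 300.4 CPM in KO against 180.2, 258 and 253 CPM in WT. In Treg it was 215, 243 and 214 CPM in KO against 195, 170.5 and 221 CPM in WT. The third CD8 KO library was the lowest of all 18 and the first CD4 WT library the lowest of its cell label, and the genotypes overlapped in each label. The log2 fold change of Trac was -0.53 (SE 0.22, 95% interval -1.02 to -0.03, adjusted p = 0.288) in CD8, 0.16 (SE 0.22, adjusted p = 0.912) in CD4 and 0.18 (SE 0.29, adjusted p = 1) in Treg.

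Trbc2, the β constant region with the more tags, stood at 468, 561 and 439 CPM in CD8 KO against 660.5, 672.5 and 488 CPM in CD8 WT. In CD4 it reached 566, 503 and 585 CPM in KO against 374, 494 and 469.9 CPM in WT, and there every KO library was above every WT library. In Treg the levels were 378, 466 and 439 CPM in KO against 368, 342 and 458 CPM in WT, which overlap. Its log2 fold change was -0.31 (SE 0.13, adjusted p = 0.264) in CD8, 0.30 (SE 0.13, adjusted p = 0.754) in CD4 and 0.11 (SE 0.17, adjusted p = 1) in Treg. Without CD8 WT replicate 3, the lowest of the WT libraries, the CD8 value was -0.44 and passed (adjusted p = 0.044, with 407 genes called in place of 1). Over all alternatives this adjusted p ran from 0.044 to 0.768.

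Trbc1, the other β constant region, had 216, 179 and 147 CPM in CD8 KO against 245.5, 322 and 208 CPM in CD8 WT. In CD4 it had 195, 161 and 217 CPM in KO against 130.3, 198 and 172 CPM in WT. Treg libraries held 100.4, 171 and 135 CPM in KO against 114, 90.7 and 140.3 CPM in WT. The ranges of KO and WT overlapped in all 3 labels. The log2 fold changes were -0.52 (SE 0.20, adjusted p = 0.259) in CD8, 0.19 (SE 0.21, adjusted p = 0.877) in CD4 and 0.25 (SE 0.28, adjusted p = 1) in Treg. With no filter on low counts Trbc1 was called in CD8 (-0.54, adjusted p = 0.0027, with 375 genes called), and over all alternatives this adjusted p ran from 0.0027 to 0.753.

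The share of Trbc1 among all Trbc1 and Trbc2 counts does not depend on the scaling between libraries. It was 31.6%, 24.2% and 25% in CD8 KO against 27.1%, 32.4% and 29.9% in CD8 WT, 25.6%, 24.2% and 27.1% in CD4 KO against 25.9%, 28.6% and 26.7% in CD4 WT, and 21%, 26.8% and 23.6% in Treg KO against 23.5%, 20.9% and 23.5% in Treg WT. The widest counting interval (95%, exact binomial) was 19.4% to 28.2%, in Treg WT replicate 1 with 378 such counts. Means by label were 28.4% ± 3.44 (SD, n = 6) in CD8, 26.4% ± 1.48 (SD, n = 6) in CD4 and 23.7% ± 2.12 (SD, n = 4) in Treg. Over 3 comparisons of labels by a two-sided exact permutation test, 0 passed after adjustment. The difference was -4.63 points for Treg minus CD8 (exact p = 0.0381, adjusted 0.1), -2.61 points for Treg minus CD4 (exact p = 0.0667, adjusted 0.1) and 2.01 points for CD8 minus CD4 (exact p = 0.223, adjusted 0.223).

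Trdc, the δ chain constant region, was counted at trace level, with 94 counts in all against 7013 for Trac. CD8 KO libraries held 4, 10 and 1 counts and CD8 WT libraries 19, 9 and 8 counts. CD4 KO libraries held 3, 2 and 3 counts and CD4 WT libraries 1, 1 and 2, at or under the 3 counts used as a floor. Treg libraries were uneven, with 0, 7 and 9 counts in KO and 1, 6 and 8 counts in WT, and a count of 0 in Treg KO replicate 1 allows up to 3.4 CPM. The CD8 KO value was 2.58 ± 2.35 CPM against 5.99 ± 3.04 CPM in CD8 WT (SD, n = 3 each), and its log2 fold change was -1.21 (SE 0.50, adjusted p = 0.252). The 3 γ chain constant regions, Tcrg-C1, Tcrg-C2 and Tcrg-C4, had 13, 39 and 18 counts over the 6 CD8 libraries, 7, 6 and 7 over the 6 CD4 libraries and 4 of each over the 6 Treg libraries. They and Rag1, Rag2 and Ptcra, which serve receptor assembly in the thymus, were below the filter on low counts (0 of 6 tested).

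Cd3d, whose product pairs with CD3ε, stood at 199.7, 187 and 123 CPM in CD8 KO against 229, 254 and 163 CPM in CD8 WT. It stood at 209, 192 and 251 CPM in CD4 KO against 107, 230 and 189 CPM in CD4 WT, and at 138, 134 and 116 CPM in Treg KO against 121, 96.8 and 117 CPM in Treg WT. Its log2 fold change was -0.34 (SE 0.25, adjusted p = 0.556) in CD8, 0.29 (SE 0.25, adjusted p = 0.838) in CD4 and 0.21 (SE 0.35, adjusted p = 1) in Treg. As with Trac, the lowest CD8 library was KO replicate 3 and the lowest CD4 library WT replicate 1.

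Cd247, the ζ chain that carries most of the tyrosine motifs, stood at 53.8, 59.9 and 31.4 CPM in CD8 KO against 69.35, 69.3 and 50.6 CPM in CD8 WT. Levels in CD4 were 84.7, 90.4 and 108 CPM in KO against 36.2, 87.9 and 93.3 CPM in WT, where WT replicate 1 lay far below the other two. In Treg they were 34.7, 51 and 49.5 CPM in KO against 37, 44.8 and 53.7 CPM in WT. The log2 fold changes were -0.39 (SE 0.30, adjusted p = 0.576) in CD8, 0.35 (SE 0.27, adjusted p = 0.834) in CD4 and -0.02 (SE 0.43, adjusted p = 1) in Treg. Cd3e, shared by both CD3 dimers, ranged from 57.1 to 68.4 CPM in CD8 KO against 57 to 99.7 CPM in CD8 WT, and from 76 to 114 CPM in CD4 KO against 61.5 to 86.9 CPM in CD4 WT. Its log2 fold change was -0.32 (SE 0.21, adjusted p = 0.499) in CD8 and 0.30 (SE 0.20, adjusted p = 0.794) in CD4. Cd3g, the partner of CD3ε in the other dimer, ranged from 17.1 to 36.6 CPM in CD8 KO against 27 to 43.4 CPM in CD8 WT, and from 39 to 49.8 CPM in CD4 KO against 20.3 to 45.1 CPM in CD4 WT. Its log2 fold change of -0.22 in CD8 (SE 0.28, adjusted p = 0.752) became 0.05 without KO replicate 3 and 0.01 without WT replicate 1. In Treg, Cd3e had a log2 fold change of 0.21 (SE 0.28) and Cd3g of -0.07 (SE 0.40), both with an adjusted p of 1.

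Cd5, a receptor that dampens signalling, stood at 65.1, 72.2 and 56.2 CPM in CD8 KO against 75.8, 84.5 and 58 CPM in CD8 WT. It stood at 120.4, 132 and 146 CPM in CD4 KO against 88.3, 131 and 112 CPM in CD4 WT, and at 41.8, 66.1 and 56.8 CPM in Treg KO against 35.7, 37.5 and 57.4 CPM in Treg WT. The genotypes overlapped in each label, whereas the labels CD8 and CD4 did not. Between genotypes Cd5 had log2 fold changes of -0.17 (SE 0.17, adjusted p = 0.652) in CD8, 0.26 (SE 0.15, adjusted p = 0.775) in CD4 and 0.31 (SE 0.25, adjusted p = 1) in Treg.

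Cd6, a relative of CD5 that binds ALCAM, stood at 65.1, 58.4 and 50.5 CPM in CD8 KO against 69.35, 64.8 and 55 CPM in CD8 WT. In CD4 the KO libraries held 91.2, 93.5 and 98.1 CPM against 51.4, 75.9 and 81 CPM in WT, with no overlap. In Treg they held 43, 51.9 and 62.8 CPM in KO against 28.1, 33.9 and 58.4 CPM in WT. In CD4 its log2 fold change was 0.42 (SE 0.16, 95% interval 0.06 to 0.78, unadjusted p = 0.0139 and adjusted p = 0.754 by edgeR). The values were -0.12 (SE 0.17, adjusted p = 0.782) in CD8 and 0.29 (SE 0.25, adjusted p = 1) in Treg. Cd6 and Trbc2 were the 2 of 10 genes with every CD4 KO library above every CD4 WT library, a pattern found in 4.94% of all genes tested.

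**Figure D2:**
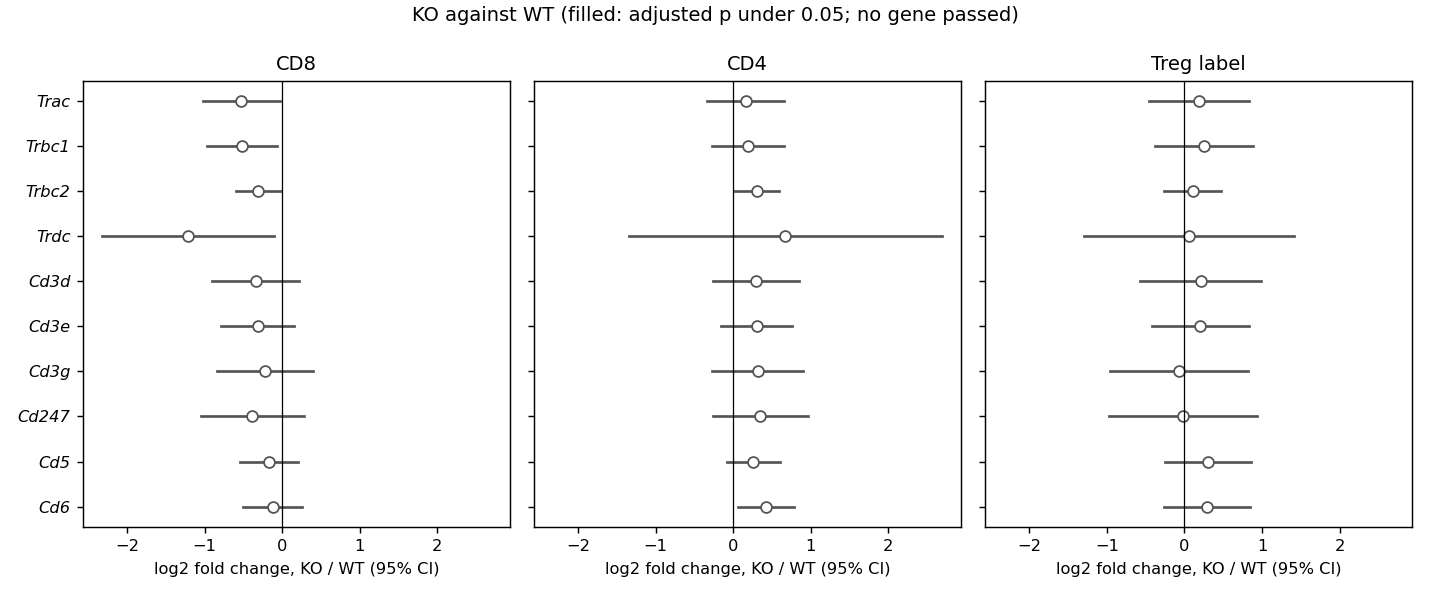
Log2 fold change of KO over WT (x axis, the same scale in all panels) for the 10 genes in CD8, CD4 and Treg. Points are fitted values and lines 95% intervals from the edgeR fit, and no gene passed; all 10 points lie below 0 in CD8 and above 0 in CD4.

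The genotype difference in CD8 was set against that in CD4 by a test of the difference itself. All 10 genes had a more negative value in CD8, with a median of -0.63 on the log2 scale against 0.00 over all genes tested, and 0 of 10 were called (0% of all genes, lowest adjusted p among the 10 of 0.140 for Trbc2). With only the groups compared Trdc was again not tested. Unadjusted, 4 of the 10 were under 0.05, Trbc2 (-0.61, SE 0.18), Trbc1 (-0.70, SE 0.29), Trac (-0.69, SE 0.31) and Cd6 (-0.55, SE 0.23), as were 2122 of all genes. Trbc2 passed without CD8 WT replicate 3 (-0.75, adjusted p = 0.0153, with 631 genes called), and over all alternatives its adjusted p ran from 0.0018 to 0.512. With no filter on low counts Trbc2, Trbc1 (-0.74, adjusted p = 0.0035, range 0.0035 to 0.702) and Cd3e (adjusted p = 0.0482, range 0.0482 to 0.748) were called, with 563 of all genes. Averaged over the 3 labels, KO against WT gave 0 of 10 called (0% of all genes, 0 of the 10 at an unadjusted p under 0.05) and a median of 0.02. The genotype difference in Treg minus that in CD4 gave 0 of 10 called (0% of all genes, 0 of the 10 unadjusted), and minus that in CD8 also 0 of 10 (0% of all genes, 1 of the 10 unadjusted). DESeq2 called 0 of the 10 in each of these 4 comparisons.

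In CD8 and CD4, sums of markers of other blood cells were high in the libraries where these genes were low. The B cell markers summed to 8155, 7270 and 9931 CPM in CD8 KO against 4760, 5556 and 7876 CPM in CD8 WT, and the 10 receptor and CD3 genes to 1417, 1464 and 1051 CPM in CD8 KO against 1782, 1949 and 1349 CPM in CD8 WT. In CD4 the B cell markers summed to 5557, 7612 and 6072 CPM in KO against 11230, 6303 and 7902 CPM in WT, and the 10 genes to 1630, 1541 and 1871 CPM in KO against 1049, 1606 and 1488 CPM in WT. In both labels the library with the most B cell and hemoglobin RNA (CD8 KO replicate 3, CD4 WT replicate 1) had the least receptor and CD3 RNA. In Treg the order was not of this kind, with B cell markers at 9218, 9471 and 9582 CPM in KO against 8964, 9364 and 9475 CPM in WT, and the 10 genes at 1052, 1315 and 1172 CPM in KO against 982, 896 and 1240 CPM in WT. Hemoglobin was 1064, 975.2 and 1457 CPM in CD8 KO against 621, 700.3 and 1034 CPM in CD8 WT, and 741, 981 and 872 CPM in CD4 KO against 1488, 841 and 1041 CPM in CD4 WT. Myeloid and dendritic markers summed to 73.7 to 113 CPM in CD8 KO against 56.4 to 92.3 CPM in CD8 WT and to 58.1 to 77.9 CPM in CD4 KO against 65.3 to 104.9 CPM in CD4 WT, with Xcr1 at 0 in all CD8 libraries and Mpo at 0 in all CD4 libraries. With those 2 libraries left out, an alternative chosen after seeing the data, the median log2 fold change of the 10 genes was -0.22 in CD8 and 0.11 in CD4, and 9 of 10 were still lower in CD8 KO, with Cd3g at 0.03. Of the tested markers, 0 of 15 B cell, 0 of 7 erythroid and 0 of 8 myeloid genes were called between KO and WT in CD8 (5, 3 and 4 at an unadjusted p under 0.05, and 0, 2 and 0 by DESeq2) or in CD4 (0 of each list unadjusted or by DESeq2). Over all 12820 genes tested, 1 was called in CD8 and 0 in CD4 (1940 and 842 unadjusted, and 45 and 1 by DESeq2). The median log2 fold changes of the B cell, erythroid and myeloid lists were 0.46, 0.53 and 0.45 in CD8 and -0.40, -0.42 and -0.43 in CD4. For the genotype difference in CD8 minus that in CD4 the medians were 0.88, 0.89 and 0.74, with 0 called in each list, 13 of 15, 5 of 7 and 2 of 8 at an unadjusted p under 0.05, and 0, 1 and 0 called by DESeq2. Over all genes, 0 were called for that difference, with 2122 unadjusted and 13 by DESeq2. Of the 3 tested NK and innate-like T markers 0 were called between KO and WT in CD8 or CD4 by edgeR or DESeq2. Their median log2 fold change was 0.705 in CD8, with 2 of 3 at an unadjusted p under 0.05, and -0.07 in CD4, with 0. All markers of that list summed to 108 to 200 CPM in CD8 KO against 94.1 to 121 CPM in CD8 WT. Of the 11 markers listed, only 3 were tested, among them Gzma, which activated CD8 cells also express. Tyrobp and Fcer1g are also in the myeloid and dendritic list, so these lists overlap. The part of Gzma in the sum was not tested. The part of these marker lists in the genotype values was not tested further.

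**Figure D3:**
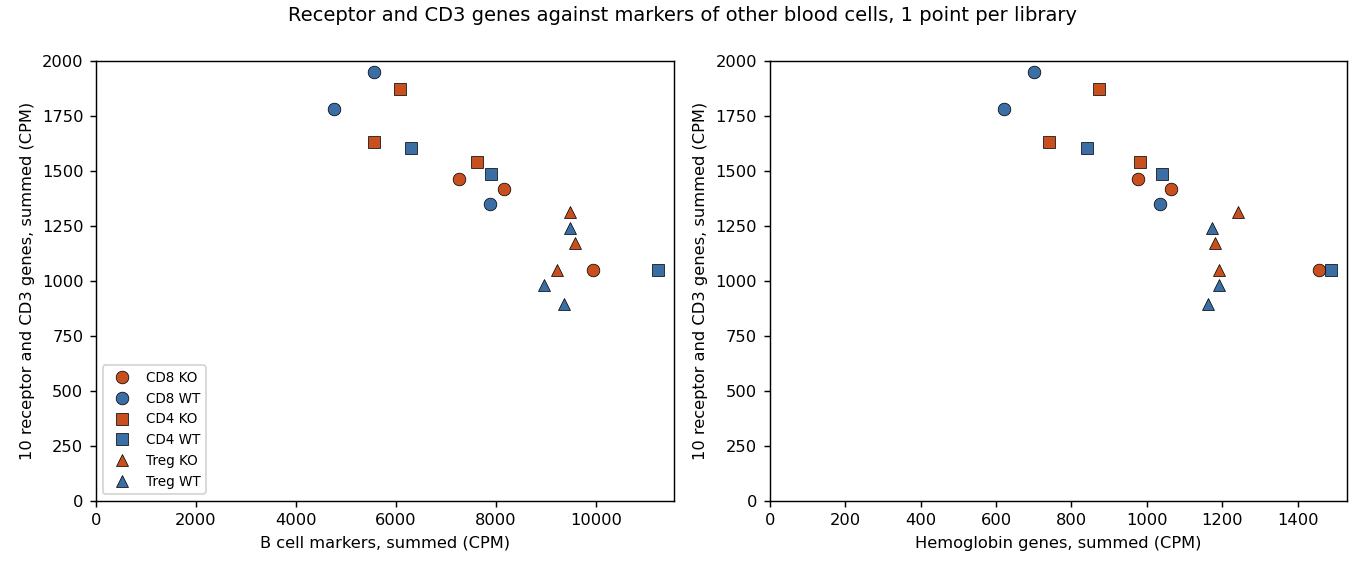
Summed level of the 10 receptor and CD3 genes (y axis, CPM, from 0) against the summed level of 15 B cell markers (left) and of 4 hemoglobin genes (right) in CPM, with 1 point per library, orange for KO and blue for WT, circles for CD8, squares for CD4 and triangles for Treg. CD8 KO replicate 3 and CD4 WT replicate 1, at 1051 and 1049 CPM on the y axis, lie farthest right in both panels among CD8 and CD4 libraries.

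Between the cell labels, Cd5 separated CD8 from CD4, and Cd6 also passed. Cd5 was lower in CD8 than in CD4, at 68.6 ± 10.9 CPM in CD8 and 122 ± 20 CPM in CD4 (SD, n = 6 each), a log2 fold change over both genotypes of -0.83 (SE 0.11, adjusted p = 1.28e-05). Every CD8 library (56.2 to 84.5 CPM) lay below every CD4 library (88.3 to 146 CPM), as in 1.3% of all genes tested (2.94% were apart in either direction), and the call held in every alternative, with adjusted p-values of 4.52e-16 to 0.0271. Cd6 was 60.5 ± 7.12 CPM in CD8 and 81.8 ± 17 CPM in CD4 (SD, n = 6 each), and its log2 fold change was -0.43 (SE 0.12, adjusted p = 0.0232). Of the 9 genes other than Trdc, 2 were called, both lower, where 5.45% of all genes were called, 2.94% higher and 2.51% lower.

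The Cd6 call was lost without some single libraries. It missed the threshold in WT alone (log2 fold change -0.16) and without any 1 of CD8 KO replicates 2 (-0.43) and 3 (-0.38), CD8 WT replicate 3 (-0.39), CD4 KO replicate 3 (-0.42) and CD4 WT replicates 2 (-0.40) and 3 (-0.37). Over all alternatives its adjusted p ran from 0.00063 to 0.659. Trdc is given here as a description only, because with 1 to 3 counts in each CD4 library it passed the filter on low counts through the CD8 and Treg libraries, and it was not tested with only the CD8 and CD4 groups in the fit. It stood at 4.29 ± 3.06 CPM in CD8 and 1.01 ± 0.349 CPM in CD4 (SD, n = 6 each), a fitted log2 fold change of 1.92, which was 1.44 without CD8 KO replicate 2 and 0.98 in KO alone.

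The αβ receptor and CD3 chains were not called between CD8 and CD4. Their fitted values did not all point the same way, with Trbc1 (log2 fold change 0.27, SE 0.15, adjusted p = 0.442) and Trbc2 (0.13, SE 0.09, adjusted p = 0.562) higher in CD8, and Cd247 (-0.60, SE 0.20, adjusted p = 0.129), Cd3g (-0.37, SE 0.19, adjusted p = 0.407) and Cd3e (-0.27, SE 0.15, adjusted p = 0.442) lower. Trac, at 250.4 ± 73.2 CPM in CD8 and 245 ± 39 CPM in CD4 (SD, n = 6 each), had a log2 fold change of 0.00 (95% interval -0.35 to 0.36). Cd3d had -0.04 (95% interval -0.44 to 0.35). Cd247 was called in 4 alternatives, among them DESeq2 (adjusted p = 0.0295) and the fit without CD4 WT replicate 1 (-0.77, adjusted p = 0.00013), over a range of 4.27e-05 to 0.72.

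Ratios within a library, which need no scaling, separated the CD4 libraries from all others for Cd5 and from CD8 for Cd6. Cd5 stood at 7.03, 7.33 and 7.85 counts per 100 counts of Trac, Trbc1 and Trbc2 in CD8 KO against 6.29, 6.29 and 6.2 in CD8 WT. The same ratio was 12, 14.7 and 13.2 in CD4 KO against 12.9, 13.8 and 12.49 in CD4 WT, and 6.03, 7.51 and 7.21 in Treg KO against 5.27, 6.21 and 7.01 in Treg WT. The 6 CD4 libraries were all above the other 12, as for 0.803% of all genes set against the same receptor counts. In CD8 the 3 KO libraries were above the 3 WT libraries, as for 20.7% of all genes. These ratios were not tested. For Cd6 the ratio was 4.82 to 7.05 in CD8, 7.51 to 10.4 in CD4 and 4.14 to 7.98 in Treg, so every CD4 library was above every CD8 library (1.66% of all genes), while Treg reached into the range of CD4. Cd247 stood at 4.39 to 6.08 counts per 100 in CD8 and 5.29 to 10.4 in CD4, with CD4 WT replicate 1 at 5.29 and the other 5 CD4 libraries at 8.45 or above. All 4 CD3 chains together stood at 31.9 to 38.7 counts per 100 in CD8, 32.9 to 47.5 in CD4 and 32.2 to 39.5 in Treg. CD4 WT replicate 1 was again the lowest of its label.

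Libraries labelled Treg had lower fitted values than CD4 for 9 of the 10 genes and than CD8 for 8, beside large differences in many other genes. Against CD4, 5 of the 9 genes other than Trdc were called, all lower, where 55.6% of all genes were called, 31.7% higher and 23.8% lower. The count of calls is near the background. Cd5 (log2 fold change -1.24, SE 0.14, adjusted p = 7.38e-08), Cd247 (-0.84, SE 0.25, adjusted p = 0.0113), Cd6 (-0.76, SE 0.15, adjusted p = 7.15e-05), Cd3d (-0.69, SE 0.22, adjusted p = 0.0164) and Trbc1 (-0.44, SE 0.18, adjusted p = 0.0456) were lower in Treg. Trdc, which passed the filter on low counts through the Treg and CD8 libraries and is given as a description, stood at 5.96 ± 1.42 CPM in Treg (SD, n = 4) and 1.01 ± 0.349 CPM in CD4 (SD, n = 6). That Treg SD is over samples in which the summed pairs were averaged. By library, Trdc ran from 0 to 10.88 CPM in Treg and from 0.48 to 1.395 CPM in CD4, so the ranges overlapped. Every Treg library (35.7 to 66.1 CPM) lay below every CD4 library for Cd5, as in 15% of all genes tested (35.4% were apart in either direction). The Trbc1 call was lost without any 1 of 8 libraries, CD4 KO 1 and 3, CD4 WT 2 and 3, Treg KO 1 and 3 and Treg WT 1 and 2, where its log2 fold change was -0.47 to -0.37, and also in WT alone (-0.47) and in KO alone (-0.41).

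Not called against CD4 were Cd3g (log2 fold change -0.45, adjusted p = 0.118), Trbc2 (-0.23, adjusted p = 0.0748), Trac (-0.18, adjusted p = 0.425) and Cd3e (-0.17, adjusted p = 0.439). Without CD4 WT replicate 1, Cd3g was called (-0.59, adjusted p = 0.0142) and so was Trbc2 (-0.30, adjusted p = 0.0126). Trbc2 also passed without Treg WT replicate 3 (-0.33, adjusted p = 0.0223), with library size only, with no filter, with all 18 libraries apart (with or without the replicate block) and with only the groups compared (-0.36 to -0.22). With no filter Cd3g (-0.58) and Cd3e (-0.30) passed as well. The range of adjusted p over all alternatives was 0.001 to 0.59 for Cd3g and 5.97e-05 to 0.529 for Trbc2. Cd3d and Cd247 missed the threshold in WT alone (-0.65 and -0.66), and Cd3d also in KO alone (-0.73).

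Against CD8, 4 of the 9 genes other than Trdc were called and all were lower in Treg, where 57.1% of all genes were called and 24.9% were lower. They were Trbc1 (log2 fold change -0.71, SE 0.18, adjusted p = 0.0029), Cd3d (-0.64, SE 0.22, adjusted p = 0.0223), Cd5 (-0.41, SE 0.15, adjusted p = 0.0211) and Trbc2 (-0.36, SE 0.11, adjusted p = 0.0059). Cd5 missed the threshold without CD8 WT replicate 2 (-0.35) and Cd3d without Treg KO replicate 2 (-0.67). In KO libraries alone none of the 4 passed, with values of -0.33 for Trbc1, -0.36 for Cd3d, -0.17 for Cd5 and -0.15 for Trbc2. Not called were Cd6 (-0.33, adjusted p = 0.0596), Cd247 (-0.24, adjusted p = 0.461), Trac (-0.19, adjusted p = 0.408), Cd3g (-0.08, adjusted p = 0.793) and Cd3e (0.10, adjusted p = 0.649). Cd6 passed without any 1 of CD8 KO replicate 3 (-0.38), CD8 WT replicate 3 (-0.38), Treg KO replicate 3 (-0.40) and Treg WT replicate 3 (-0.57). It also passed in WT alone (-0.54), with library size only, with no filter, with all 18 libraries apart (with or without the replicate block) and with only the groups compared (-0.46 to -0.33). Trac passed without CD8 KO replicate 3 (-0.31). Trdc is a description only here as well, because its counts were near the floor and it was not tested without the Treg groups. Its fitted log2 fold change was 0.57, and 1.06 without CD8 KO replicate 2. The ranges of Treg and CD8 libraries overlapped for all 10 genes, while 37.9% of all genes were apart.

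Sums of the B cell markers were 8964 to 9582 CPM in all 6 Treg libraries, against 5557 to 11230 CPM among CD4 and 4760 to 9931 CPM among CD8 libraries. Over all genes tested, 31.7% were called higher in Treg than in CD4 and 32.2% higher than in CD8, and the calls in each marker list here stand beside these shares. Of the 15 tested B cell markers, 7 were called higher in Treg than in CD4 and 7 higher than in CD8, and 0 lower. Hemoglobin stood at 1162 to 1240 CPM in Treg against 741 to 1488 CPM among CD4 libraries and 621 to 1457 CPM among CD8 libraries, and of 7 tested erythroid markers 1 was called higher in Treg than in CD4 and 3 than in CD8, with Klf1 at 0 in Treg. Treg libraries held 104.5 to 121 CPM of myeloid and dendritic markers, against 58.1 to 104.9 CPM among CD4 and 56.4 to 113 CPM among CD8 libraries, and 4 of 8 tested were called higher than in CD4 and 4 than in CD8, with 1 lower. Among NK and innate-like T markers, which matter for Trdc, the sum was 38.7 to 63.7 CPM in Treg, 94.1 to 200.2 CPM in CD8 and 36.5 to 68 CPM in CD4. Klra4 and Il17a were at 0 in CD8, Klre1, Klra8 and Sox13 at 0 in CD4 and Il17a at 0 in Treg. Gzma, a member of that list that activated CD8 cells also express, was called higher in CD8 than in CD4 (4.99, SE 0.34). A further alternative, chosen after seeing the data, left out CD8 KO replicate 3 and CD4 WT replicate 1. Of the 9 genes other than Trdc, 3 were then called lower for CD8 against CD4 (766 of all genes called in either direction). For Treg against CD4, 8 were called lower (7442 of all genes), and for Treg against CD8, 7 were (7595 of all genes). Among these were Trbc2 (-0.35) and Cd3g (-0.63) against CD4 and Cd6 (-0.43) against CD8. The part of other cells in the differences between labels was not tested further.

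**Figure D4:**
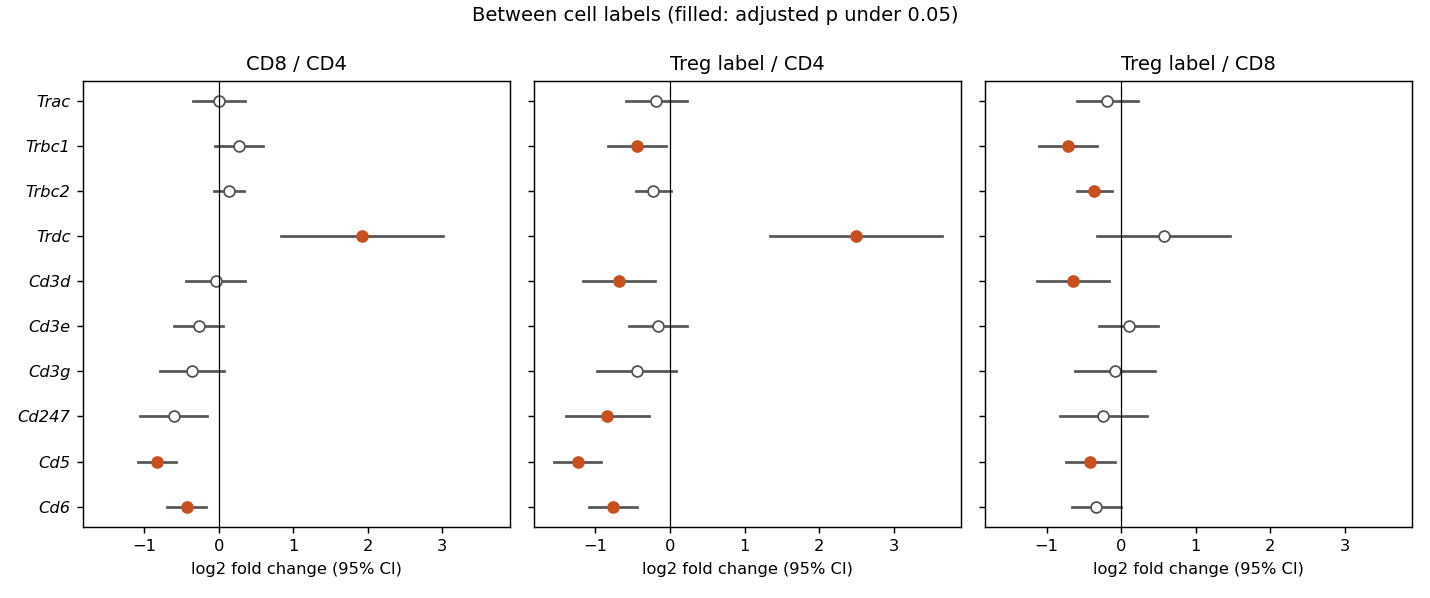
Log2 fold change between cell labels over both genotypes (x axis, the same scale in all panels) for the 10 genes, with CD8 over CD4, Treg over CD4 and Treg over CD8 from left to right. Points are fitted values, filled where the adjusted p was under 0.05, and lines 95% intervals; Cd5 is filled and below 0 in all 3 panels, and Trdc, filled against CD4, is a description only.

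The variable, joining and diversity segments of the receptor loci were counted as genes of their own. The table holds 218 of them, and the most counted were joining segments of the α locus, Traj18 with 1721 counts, Traj12 with 659, Traj49 with 285, Traj27 with 244 and Traj40 with 108. All segments together stood at 132.6 to 180.6 CPM in Treg libraries, 88.4 to 135 CPM in CD8 and 86.1 to 139 CPM in CD4, scaled to library size without TMM. Per 100 Trac counts this was 81.1, 76.3 and 76.3 segment counts in Treg KO against 79.1, 83 and 76.6 in Treg WT, 39.4, 48.6 and 85.35 in CD8 KO against 43.9, 33.3 and 35.8 in CD8 WT, and 56.2, 41 and 32.8 in CD4 KO against 47, 36.7 and 34.2 in CD4 WT. Treg libraries were above the others with the exception of CD8 KO replicate 3. The number of segments with a count was 9 to 13 in Treg libraries, 20 to 26 in CD8 and 13 to 27 in CD4 libraries. Treg libraries were the shallowest, yet over all genes they had the most with a count (above). These segment counts and the genes they overlap cannot be told apart here, because the strand setting of the counting is not given in the sources used.

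**Figure D5:**
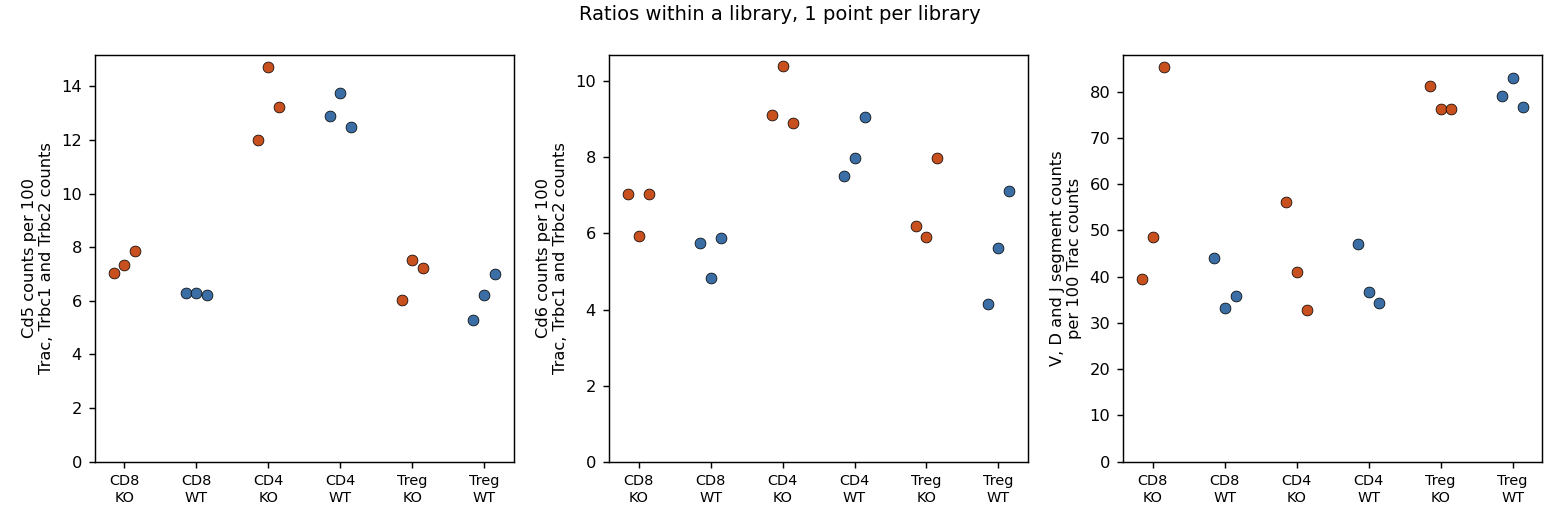
Counts of Cd5 (left) and Cd6 (middle) per 100 counts of Trac, Trbc1 and Trbc2, and of V, D and J segments per 100 Trac counts (right), on y axes from 0, with 1 point per library and KO in orange left of WT in blue. CD4 libraries lie at 12 to 14.7 for Cd5, above all others, and Treg libraries at 76.3 to 83 for segments, a level that among the other 12 libraries CD8 KO replicate 3 alone reached, at 85.35.

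Across the 18 libraries the levels of the 9 genes other than Trdc were positively correlated in every pair. The 36 pairs among them had a median Pearson r of log2 CPM of 0.71 (0.52 to 0.91) over the 18 libraries, and of 0.74 (0.48 to 0.90) after the group means were removed. The 9 pairs with Trdc had a median of -0.02 (-0.28 to 0.24), and of 0.40 (0.05 to 0.60) after the group means were removed. Within the 12 CD8 and CD4 libraries the medians were 0.74 (-0.02 to 0.92) for the 36 pairs and 0.17 (-0.42 to 0.69) for the pairs with Trdc, and the lowest among the 36 was that of Trbc1 with Cd5. Points share depth, scaling and the amount of other cells, so these values are a description only. Among 18 libraries the genes with the pattern most like the mean of the 7 αβ receptor and CD3 genes were Leprotl1 (r = 0.93), Satb1 (0.92), Nfatc2 (0.90), Ago2 (0.90), Plcg1 (0.89), Tmsb10 (0.89), Caprin1 (0.88) and Fxyd5 (0.87). Among the 12 CD8 and CD4 libraries they were Cdc45 (r = 0.97), Nfx1 (0.96), Crybg1 (0.95), Ndc1 (0.95), Stambpl1 (0.95), Lat (0.95), Pola1 (0.94) and Tpx2 (0.94). In the first list Plcg1 encodes a phospholipase downstream of the receptor, Nfatc2 a calcium-regulated transcription factor, Satb1 a chromatin organiser and Ago2 a protein of RNA interference. In the second Lat encodes an adaptor of the receptor, Cdc45 and Pola1 serve DNA replication, Tpx2 the mitotic spindle and Ndc1 the nuclear pore.

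Genes that carry the receptor's signal were given the same tests. Between KO and WT in CD8, CD4 and Treg, 0 of 28 proximal signalling genes, 0 of 18 negative regulators, 0 of 19 downstream genes and 0 of 12 transcription factors known at receptor and CD3 genes were called (edgeR, and 0 in each list by DESeq2). Of all 12820 genes tested, edgeR called 1 in CD8 and 0 in CD4 and Treg, and DESeq2 called 45, 1 and 0. Unadjusted p-values were under 0.05 for 6, 2, 3 and 1 genes of these lists in CD8 (1940 of all genes), for 4, 1, 2 and 3 in CD4 (842 of all genes) and for 0 in Treg (192 of all genes). The median log2 fold changes of the proximal genes were -0.20 in CD8, 0.17 in CD4 and 0.09 in Treg. For the genotype difference in CD8 minus that in CD4, 0 genes of each list were called (0% of all genes). Unadjusted, 13, 2, 4 and 3 genes of the lists were under 0.05 for that difference (2122 of all genes). The list medians were -0.44, -0.12, -0.01 and -0.14 on the log2 scale. Between CD8 and CD4, where 5.45% of all genes were called, 4 of 28 proximal genes were higher and 4 lower in CD8, among them Trat1 (log2 fold change -2.26, SE 0.33), an adaptor that binds CD3ζ, Sla2 (1.05, SE 0.18), an adaptor of the SLAP family, Themis (0.70, SE 0.14) and Sh2d2a (0.62, SE 0.13). Of the negative regulators 1 was higher, Spry2 (2.87, SE 0.45), and 2 lower, Spry1 (-1.43, SE 0.25) and the ERK phosphatase Dusp6 (-0.57, SE 0.11). Of the downstream genes 0 of 19 were called by edgeR or DESeq2, with 3 at an unadjusted p under 0.05. Of 12 transcription factors 1 was higher and 6 lower in CD8, with Runx3 (0.72, SE 0.09), the factor of the CD8 lineage, higher and Runx1 (-1.68, SE 0.13), Tcf7 (-0.87, SE 0.20) and Lef1 (-0.62, SE 0.11) lower.

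Treg libraries differed from CD4 and CD8 libraries in more of these genes, as they did in all genes. Against CD4, where 55.6% of all genes were called, 9 of 28 proximal genes were higher and 12 lower, among them the TEC family kinases Txk (2.73, SE 0.17) and Tec (2.01, SE 0.22), which were higher, and the adaptor Lcp2 (-2.26, SE 0.15), which was lower. Negative regulators were higher in 4 and lower in 8 cases, with Spry1 (-3.09, SE 0.43), Spry2 (2.00, SE 0.62), Dusp6 (-1.55, SE 0.15) and Dok2 (-1.53, SE 0.25) the largest. Downstream genes were higher in 6 and lower in 3, with Ppp3r1 (0.56, SE 0.10), Itpkb (0.54, SE 0.09), Nfatc3 (0.44, SE 0.08) and Nfatc2 (-0.41, SE 0.16) the largest. Transcription factors were higher in 5 and lower in 3, with Gata3 (-2.19, SE 0.14), Tcf7 (0.63, SE 0.21), Runx1 (0.51, SE 0.13) and Satb1 (-0.50, SE 0.14) the largest. Against CD8, where 57.1% of all genes were called, the counts were 9 higher and 8 lower for proximal genes, among them Txk (2.37, SE 0.16), 3 and 8 for negative regulators, led by Spry1 (-1.66, SE 0.52) and Dok2 (-1.49, SE 0.25), 6 and 2 for downstream genes, led by Ppp3r1 (0.70, SE 0.10) and Nfatc3 (0.40, SE 0.08), and 7 and 3 for transcription factors, led by Runx1 (2.19, SE 0.15) and Gata3 (-1.80, SE 0.14). Tec is also expressed in B cells and myeloid cells, some of whose markers were called higher in Treg libraries (above). The part of those cells in its value was not tested.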

How the data were processed

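Messenger RNA was read from 3′ tags with unique molecular identifiers (QuantSeq 3′ FWD, 500 ng of RNA per library), per the labels' protocols. The authors deposited raw counts per Ensembl gene, not normalised. The submitters' processing notes name STAR 2.5.3a, cutadapt 2.10, featureCounts, Subread 2.0.0, UMI-tools 1.0.0 and FastQC, with GRCm38 (mm10) as build. Annotation release, strand setting and the treatment of reads with several alignments were not stated. Symbols came from GENCODE M21 (55141 of 55487 IDs matched), and 0 columns were unused.

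Counts were analysed with edgeR 4.0.16 in R 4.3.3, with filterByExpr at a minimum count of 10, TMM scaling, glmQLFit (robust) on 6 group means over 16 samples (10 residual degrees of freedom, common dispersion 0.0106), glmQLFTest and Benjamini-Hochberg adjustment over 12820 genes. Replicates that differed by no more than sampling noise (chi-square per gene, 20 or more counts in the pair) were summed. CPM were computed per library from the deposited counts after TMM scaling, except for the segments and the floors, which were scaled to library size only. The Trbc1 share was tested by exact permutation in SciPy 1.17.1, and scripts were tested on simulated data. Totals were 841892 to 2255950 counts per library. Floors (3 counts) and the exact binomial intervals (95%) of the Trbc1 share cover counting error only. Intervals (95%) of log2 fold changes come from the fitted SE and so carry the spread among samples. They use the 10 residual degrees of freedom only, which the edgeR test does not. An interval can therefore reach 0 where the unadjusted edgeR p is under 0.05, as for Trac in the CD8 difference minus the CD4 difference.

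Genes, lists and tests were chosen with earlier results of these data known. All 10 genes are named in each main comparison, up to 4 genes per list past the threshold by size of log2 fold change (fewer where counts lead, and 1 gene of the rule is not reported here), and for likeness the 8 of highest r (log2 CPM with a prior count of 2, mean of 4 or more). Alternatives were RLE scaling, library size only, no filter, DESeq2 1.42.0, all 18 libraries apart, a replicate block, only the groups compared, each genotype alone, each replicate left out and, chosen after seeing the data, the 2 libraries of highest hemoglobin left out.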

Additional observations from a re-analysis of the deposited data

How the results depend on the processing

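Of 237 counts and shares recomputed under alternatives, 227 stayed within 1.5 times or on the same side of the threshold. In all genotype comparisons the main fit called 0 members and 0 or 1 of all genes. A count of 0 there had little room to change. A change from 3 members to 2, as in CD8 against CD4 without CD8 KO replicate 3, also counted as staying. With no filter on low counts, 1 member (Trbc1) was called for KO against WT in CD8 and 3 (Trbc1, Trbc2 and Cd3e) for the CD8 difference minus the CD4 difference, with 375 and 563 genes called. For all genes in CD8 the count of 1 became 9 with RLE scaling, 45 with DESeq2, 21 with all 18 libraries apart and 0 with only the groups compared, and in the CD8 difference minus the CD4 difference DESeq2 called 13. Treg against CD4 gave 3 members in WT alone, and Treg against CD8 gave 0 in KO alone and 7 with the 2 libraries of highest hemoglobin left out. With single replicates left out, 1 to 4 members were called for CD8 against CD4, 0 to 1 for KO against WT in CD8 and 0 to 1 for the CD8 difference minus the CD4 difference. With all 18 libraries apart, the Trbc1 share differed by -3.13 points in Treg against CD4 and by -5.14 in Treg against CD8 (exact permutation test, adjusted p = 0.0357 each).

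The replicate block, fitted with all 18 libraries apart, called 2 members for CD8 against CD4 (Trdc no longer passed), 7 for Treg against CD4, 5 for Treg against CD8 and 0 between genotypes, where 12 genes were called in CD8. The labels do not say that the numbers pair samples, and same-numbered KO and WT libraries had correlations of their deviations from group means of -0.23 to 0.31.

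These single genes reversed. Trac in CD8 against CD4 was -0.006 with RLE, -0.002 with DESeq2, -0.004 with the block, -0.011 with only the groups compared and -0.34 in KO alone. In KO alone Trbc1 was -0.084 and Trbc2 -0.17 in CD8 against CD4, and Trac 0.17 in Treg against CD8. In WT alone Cd3d was 0.27 and Cd3e 0.041 in CD8 against CD4, and Trdc -0.065 and Cd3e -0.16 in Treg against CD8, where Cd3e was -0.032 with no filter. Cd3g in KO against WT in CD8 was 0.032 without the 2 libraries of highest hemoglobin. With single replicates left out, Trac ran from -0.089 to 0.13 and Cd3d from -0.19 to 0.078 in CD8 against CD4, Cd3g from -0.23 to 0.035 and Cd3e from -0.11 to 0.20 in Treg against CD8, and Cd3g from -0.43 to 0.053 in KO against WT in CD8. In KO against WT in Treg, Cd247 ran from -0.14 to 0.16, Cd3g from -0.26 to 0.21, Trbc1 from -0.019 to 0.47 and Trdc from -0.62 to 0.58. The cause was not tested. With no filter the median of all genes moved to 0.30 in Treg against CD4 and 0.32 in Treg against CD8, against 0.08 and 0.07. Depth limits Trdc most, with 0 to 9 counts in a Treg library and a 95% interval of -1.30 to 1.42 (log2) for KO against WT in Treg. Counts of members in this section include Trdc, which is a description only.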
